A study of Mus musculus with 11 samples.

Results

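CD8 T cells are the killer branch of the T cell lineage. A CD8 T cell recognizes a peptide held on a class I molecule, releases granzymes, the proteases that trigger the death of the target cell, and secretes interferon-gamma and chemokines. Few of them are found in the healthy young brain, whereas CD8 T cells collect in the aged brain and enter the central nervous system in experimental autoimmune encephalomyelitis (EAE), a model of multiple sclerosis in which CD4 T cells are known as the drivers of disease. Cells of this kind were compared here between the cerebral cortex of Aged mice and that of mice with EAE, by single-cell RNA-sequencing with unique molecular identifiers (UMIs, which count captured RNA molecules).

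The cells were selected on UMIs of a few genes. A barcode was kept if it held more than 500 and under 6000 genes and under 25% mitochondrial UMIs. A kept cell was counted as a CD8 T cell if it held at least 2 UMIs of the CD3 genes (Cd3d, Cd3e and Cd3g, the signaling chains of the T cell receptor), at least 1 UMI of Cd8a or Cd8b1 (both chains of the CD8 coreceptor), 0 UMIs of Cd4, at most 3 UMIs of the myeloid genes C1qa, Csf1r and Lyz2 and at most 2 UMIs of the endothelial genes Cldn5 and Flt1. This rule found 429 cells among 50625 kept cells of all 11 libraries. Of these, 86 and 67 came from the Aged 1 and Aged 2 libraries and 136 and 108 from the EAE 1 and EAE 2 libraries, in sum 397 of the 26263 kept cells of these 4 libraries. The 3 Adult libraries gave 10, 4 and 2 such cells, which were pooled for reference, and the 4 Juvenile libraries gave 2, 1, 7 and 6, which were not compared further.

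All mice were C57BL/6. Aged mice were 18 months old and untreated. EAE mice were females of 7 to 11 weeks, immunized with MOG35–55 peptide in Complete Freund's Adjuvant, given pertussis toxin and sampled at the peak of disease, and Adult mice were of the same age and untreated. Cortex was pooled from 3 mice per library in Aged and EAE and from 6 in Adult, so that a library is an average over animals. Age, immunization, toxin and disease all separate the Aged from the EAE group and cannot be told apart in this comparison.

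A stricter selection, used as an alternative, asked for at least 3 UMIs of the CD3 genes and none of the myeloid and endothelial genes, and kept 84 of the 397 cells, 36 in Aged and 48 in EAE. Under the rule itself the CD3 sum was exactly 2 UMIs in 12 of the 397 cells and the CD8 sum exactly 1 in 47. Only 5 further cells failed because their CD3 sum was 1, while 101 cells were left out for their myeloid or endothelial UMIs, 19 in Aged and 82 in EAE. Genes that the rule did not read matched the label. Trbc2, a constant region of the T cell receptor beta chain, was found in 77 of 86, 59 of 67, 123 of 136 and 102 of 108 cells in the order Aged 1, Aged 2, EAE 1 and EAE 2, and several defining markers of other lymphocytes were at or near 0: Foxp3 of regulatory T cells, Cd79a of B cells and Klra8 of natural killer (NK) cells had 0 UMIs and Ncr1, an NK receptor, had 1. Other markers of these cells were present, with 90 UMIs of Klre1 (NK), 72 of Igkc and 33 of Ighm (B) and 22 of Cd40lg (CD4 T). The 7 B cell markers summed to 94.9 and 152 counts per 1000000 UMIs (CPM) in Aged and 63.1 and 81.7 in EAE, with Igkc, the 1 tested, higher in Aged. The 9 NK markers, which include Gzma and Eomes, summed to 609.5 and 516 CPM in Aged and 2997 and 3646 in EAE, and of 5 tested Eomes was higher and Gzma lower in Aged. Their part in the results was not tested. Trac, the constant region of the receptor's alpha chain, had 17 UMIs in all.

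The 4 libraries did not have the same depth. Total UMIs per library ranged from 15755504 to 34326349 over the series, and the median CD8 T cell held 2286.5 and 2615 UMIs in Aged against 3579.5 and 3338 in EAE. A single cell of Aged 2 drew 74.3% of its UMIs from hemoglobin genes, and no other Aged or EAE cell of the set exceeded 0.437%. EAE 1 and EAE 2 shared 113 kept barcodes, of which 1 was a CD8 T cell in both. RNA of markers of other cells was present in the sums over CD8 T cells, given here in CPM. The 11 endothelial markers together took 1809 and 2452 in Aged against 1008 and 901 in EAE (5 of 8 tested were higher in Aged). The 14 myeloid markers took 2263 and 2978 against 2209 and 2032 (3 of 8 higher). The 8 dendritic cell and class II markers took 185 and 217 against 599 and 819 (3 of 4 lower). Of these calls, Pltp, Esam and P2ry12 entered the test through Aged alone and H2-Eb1 through EAE alone, as explained below, and support nothing here. P2ry12 was not called without the filter on low counts. Of the markers that entered through both groups, 3 of 5 endothelial and 2 of 7 myeloid ones were higher and 2 of 3 dendritic and class II ones lower. The 3 endothelial ones were Itm2a, Ly6c1 and Bsg, with 203 and 284 Bsg UMIs in Aged and 261 and 173 in EAE. Ly6c1 is also counted below among activation genes, and Slc2a1, another endothelial marker, among glycolysis genes. The endothelial sum may therefore hold RNA of the CD8 T cells themselves. The choroid plexus markers took 6270 and 7998 in Aged against 5702 and 8080.5 in EAE, with 0 of 3 tested called. Ttr, 1 of these markers, was found in all 86, 67, 136 and 108 CD8 T cells of Aged 1, Aged 2, EAE 1 and EAE 2. The 5 red blood cell genes took 1149 and 35821 in Aged against 76.5 and 69.7 in EAE. Their part in the differences given here was not tested, and endothelial cells (ECs) of the same libraries, taken with 0 UMIs of the CD3 genes, were measured beside the CD8 T cells for each main gene.

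The share of CD8 T cells among the kept cells overlapped between Aged and EAE, whereas their share of the gated CD8 and CD4 T cells did not. They formed 1.69% of kept cells in Aged 1 (95% exact binomial interval 1.35 to 2.08) and 1.41% in Aged 2 (1.09 to 1.79), against 1.63% in EAE 1 (1.37 to 1.93) and 1.33% in EAE 2 (1.10 to 1.61). The ranges of the groups overlapped, and the difference of 0.0652 percentage points was smaller than the SD between the libraries of EAE (0.212). The exact permutation p over libraries was 0.667, two-sided, where 2 against 2 cannot go below 0.333, so that it does not show that the shares were alike. It turned to -0.0742 without Aged 1 and to -0.0850 without EAE 2. In the 3 Adult libraries the share was 0.314%, 0.106% and 0.0514%. Intervals of this kind cover counting error only.

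CD4 T cells, defined by the same rule with at least 1 UMI of Cd4 and none of Cd8a and Cd8b1, had shares of kept cells that did not overlap between Aged and EAE. They formed 0.196% and 0.126% of kept cells in Aged but 3.17% and 3.04% in EAE, with 10, 6, 264 and 246 cells. CD8 T cells were therefore 89.6% of the gated CD8 and CD4 T cells in Aged 1 (81.7 to 94.9) and 91.8% in Aged 2 (83.0 to 96.9), against 34.0% in EAE 1 (29.4 to 38.9) and 30.5% in EAE 2 (25.8 to 35.6). The mean difference was 58.4 percentage points, and every Aged library lay above every EAE library. The exact permutation p was 0.333, two-sided, which is the smallest that 2 libraries against 2 can give. T cells with UMIs of both coreceptors numbered 3 and 2 in Aged and 13 and 9 in EAE, and those with neither 56 and 34 against 271 and 255. Neither kind entered the shares among CD8 and CD4 T cells, which are therefore not shares of all T cells.

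**Figure D1:**
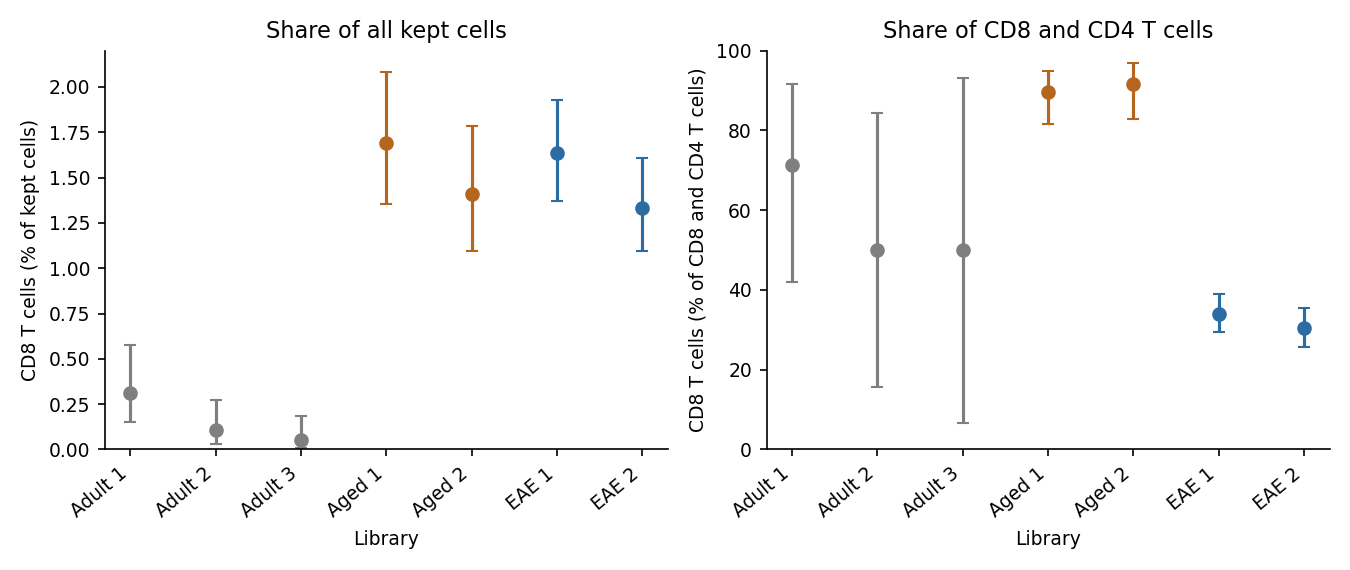
CD8 T cells as percent of kept cells (left panel) and of gated CD8 and CD4 T cells (right panel) in each Adult, Aged and EAE library. Points are libraries and bars 95% exact binomial intervals. The 2 Aged and 2 EAE libraries sit between 1.33% and 1.69% on the left, and at 89.6% and 91.8% against 34.0% and 30.5% on the right.

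Gene levels were then compared between Aged and EAE CD8 T cells. UMIs were summed over the cells of each library and tested by edgeR's quasi-likelihood test with Benjamini-Hochberg adjustment over 3625 genes, so that the library and not the cell was the replicate (n = 2 per group). Levels are given as CPM after TMM scaling, always in the order Aged 1, Aged 2, EAE 1, EAE 2, and log2 fold changes (log2FC) as Aged minus EAE with their standard error (SE). At an adjusted p of 0.05, 613 genes changed, which is 16.9% of those tested. Of these, 301 were higher in Aged (8.3%) and 312 lower (8.61%). These counts include genes of the selection rule, and without them 299 of 3615 were higher and 311 lower. A gene was tested if at least 2 libraries reached 32.4 CPM before scaling, so that it could enter through the 2 libraries of one group alone. For 384 of the 3625 genes no library of the other group reached this level, so that these genes could differ in 1 direction only. Of these, 145 were called, 101 of which were also called in a fit without the filter, and of the other 3241 genes 217 were higher and 251 lower (14.4%). The other 3241, counted here as entered through both groups, include genes that only 1 library of the lower group reached. Eomes, Xcl1, Plac8 and Isg20 are among them. The 2 libraries of the higher group sufficed for such genes too, so that their calls share this limit in part. The genes given with values here that entered through one group alone were Tox and Gm7866 (Aged) and Havcr2, Klrg1, Ifit1 and Ifitm1 (EAE). Their values are a description, and their calls support nothing here, although all 6 were also called without the filter. The median log2FC of all tested genes outside the selection rule was 0.01. By DESeq2's Wald test, which tested 1868 genes, 178 changed, 173 of them among the 613. With the stricter selection 117 of 887 tested genes changed, and with each cell thinned to 800 UMIs 113 of 1080. These counts, and 16.9% in the main fit, are the background for the counts of gene lists below. Leaving out a library left 310 (without Aged 1) to 438 (without Aged 2) calls.

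The granzymes differed from each other. Gzma, a tryptase of the killing granules (GRCm38 chr13:113093825-113100981, minus strand), stood at 130 and 50.9 CPM in Aged and at 2847 and 3594 in EAE. Both Aged values lay far below both EAE values, with a log2FC of -5.14 (SE 0.29, adjusted p = 2.43e-07) that went to -6.01 without Aged 1. Gzmb, the protease that cleaves caspases in target cells (chr14:56258838-56262260, minus strand), stood at 54.1 and 79.2 in Aged and at 1345 and 907 in EAE (log2FC -4.08, SE 0.24, adjusted p = 2.12e-11). Gzmk, another granzyme, encoded near Gzma on the same strand (chr13:113171608-113225908), did not follow them. It stood at 698 and 628 in Aged and at 621 and 632 in EAE (log2FC 0.08, SE 0.15, adjusted p = 0.764). The pooled Adult cells had 1217 Gzma, 714 Gzmb and 114 Gzmk CPM.

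The same pattern was seen cell by cell. After each cell was thinned to 800 UMIs to remove the difference in depth, 3.49% and 1.49% of Aged cells held a Gzma UMI, against 33.8% and 32.4% of EAE cells. For Gzmb the shares were 6.98% and 4.48% against 44.1% and 35.2%, and for Gzmk 34.9% and 29.9% against 26.5% and 36.1%. In ECs of the same libraries, thinned alike, at most 0.45% of cells held each of these RNAs. Without thinning, Gzmk together with Gzma or Gzmb was found in 12.8% and 10.4% of Aged but 61.0% and 56.5% of EAE cells. After thinning, these shares were 4.65% and 1.49% against 16.2% and 14.8%. Gzmk without the other granzymes was found, without thinning, in 53.5% and 49.3% against 9.56% and 17.6%. After thinning, its shares were 30.2% and 28.4% against 10.3% and 21.3%. Gzma RNA was concentrated in few EAE cells: the tenth of cells with the most held 73.3% and 79.1% of all Gzma UMIs, with up to 164 and 170 in a cell, against 45.9% and 42.5% for Gzmb and 33.7% and 34.0% for Gzmk.

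**Figure D2:**
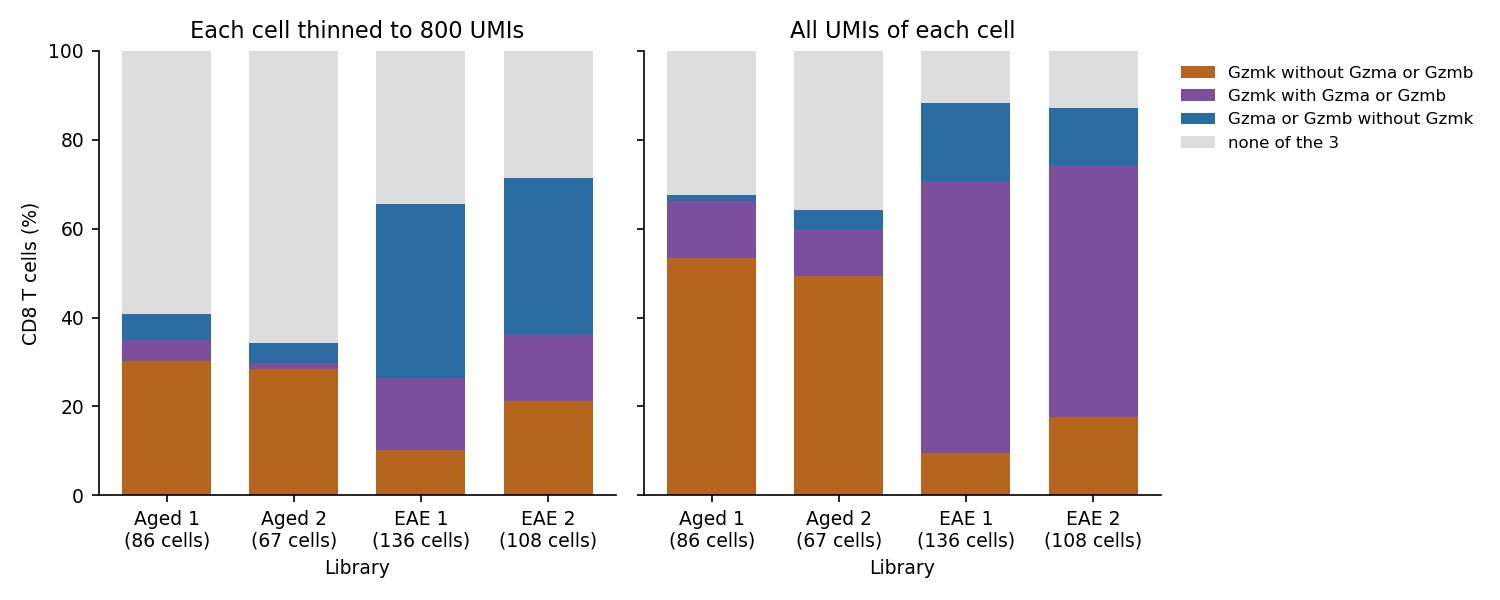
Percent of CD8 T cells of each Aged and EAE library that held UMIs of Gzmk alone, of Gzmk with Gzma or Gzmb, of Gzma or Gzmb alone, or of none of the 3, after thinning each cell to 800 UMIs (left) and with all UMIs (right). Gzma or Gzmb was found with or without Gzmk in most EAE cells when all UMIs were counted, and Gzmk alone in 53.5% and 49.3% of Aged cells.

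Of 15 listed effector genes 11 could be tested, of which 6 were lower in Aged, Gzma and Gzmb among them, and 1 higher (Cst7), with a median log2FC of -0.71. Serpinb6b, a serpin of the family that restrains granule proteases, stood at 43.3, 73.6, 235 and 191 (log2FC -1.88, adjusted p = 6.3e-05). Serglycin (Srgn), the proteoglycan on which granzymes are stored, stood at 909, 945, 1566 and 1526 (log2FC -0.74, adjusted p = 0.00042), and Ctsw, a granule cathepsin, at 444, 385, 760 and 598 (log2FC -0.71, adjusted p = 0.00339). Nkg7, a granule membrane protein, stood at 3334, 3487, 3245 and 2923 (log2FC 0.14, adjusted p = 0.447) and did not pass the test. Perforin (Prf1), the pore former of the granules, had 7 UMIs over all cells and could not be tested. The Ctsw call was lost without EAE 1 (adjusted p = 0.0963), and Cst7, the gene called higher, was lost without Aged 1, Aged 2 or EAE 2 (adjusted p = 0.137 to 0.352). With thinned cells 2 of 10 tested were lower and 0 higher, and with the stricter selection 3 of 7 and 0.

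Several secreted factors were higher in Aged. Of 18 listed cytokine and chemokine genes 10 were tested, of which 5 were higher in Aged and 0 lower (median log2FC 0.60). Xcl1, the chemokine that attracts cross-presenting dendritic cells (chr1:164931644-164935527, minus strand), stood at 547 and 402 in Aged and at 64.3 and 15.7 in EAE. Its log2FC was 3.46 (SE 0.34, adjusted p = 2.65e-06), and 4.83 without EAE 1 or 2.83 without EAE 2. Ccl4, a chemokine that attracts lymphocytes and monocytes (chr11:83662584-83664683, plus strand), stood at 2825 and 2044 in Aged and at 939 and 818 in EAE (log2FC 1.47, SE 0.15, adjusted p = 1.35e-07). In ECs Ccl4 differed the other way, with a log2FC of -0.58, and its RNA was common there. After thinning it was found in 11.9%, 14.9%, 16.9% and 18.3% of ECs in the order Aged 1, Aged 2, EAE 1 and EAE 2. The shares of CD8 T cells were 60.5%, 55.2%, 27.2% and 42.6%. Ccl3, a related chemokine, stood at 368, 374, 249 and 144 (log2FC 0.89, adjusted p = 0.00592) and lost its call without EAE 2 (adjusted p = 0.158). Ifng, which encodes interferon-gamma (chr10:118441046-118445892, plus strand), stood at 579 and 294 in Aged and at 265 and 178 in EAE (log2FC 0.96, SE 0.27, adjusted p = 0.0282), and without Aged 1 its log2FC was 0.35 (adjusted p = 0.532). Ccl5, a T cell chemokine and among the most abundant RNAs of these cells, stood at 18416, 20237, 13329 and 17311 (log2FC 0.34, adjusted p = 0.0197) and lost its call without Aged 1, Aged 2 or EAE 1 (adjusted p = 0.254 to 0.525). Ccl3 was found, after thinning, in 7.15%, 8.90%, 11.3% and 12.6% of ECs and in 20.9%, 14.9%, 11.8% and 5.56% of CD8 T cells. In EAE the CD8 T cells thus did not stand clear of the ECs for Ccl3, and the part of RNA from other cells was not tested. By DESeq2 only Xcl1 and Ccl4 of the 5 genes called higher passed, and 3 of 7 tested were higher with thinned cells and 2 of 6 with the stricter selection.

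Tox and Eomes are regulators of T cell state. Tox, a nuclear factor that rises in T cells under lasting antigen exposure (chr4:6686353-6991557, minus strand), stood at 233 and 283 in Aged and at 18.1 and 15.7 in EAE, with 114 in the pooled Adult cells. It held 43 and 50 UMIs in Aged and 9 and 6 in EAE, and so entered the test through Aged alone (log2FC 3.88, SE 0.32; 3.70 without the filter). Eomes, a T-box factor of effector and memory CD8 T cells (chr9:118478212-118486132, plus strand), stood at 260 and 306 against 26.1 and 49.8, with 178 in Adult (log2FC 2.94, SE 0.29, adjusted p = 4.05e-08). Both Aged values exceeded both EAE values for each gene. After thinning, Tox was found in 16.3% and 25.4% of Aged against 1.47% and 1.85% of EAE cells and Eomes in 18.6% and 28.4% against 3.68% and 4.63%, while at most 0.18% of the ECs of these libraries held Tox and at most 0.028% Eomes. With all UMIs, 55.8% and 65.7% of Aged cells held Tox or Eomes, against 11.0% and 11.1% in EAE.

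The nuclear receptors Nr4a1, Nr4a2 and Nr4a3, which T cell receptor signals induce, were higher in Aged. Nr4a2 stood at 1061, 696, 185 and 262 (log2FC 1.99, SE 0.20, adjusted p = 1.35e-07), Nr4a1 at 568.2, 408, 185 and 241 (log2FC 1.21, adjusted p = 8.64e-05) and Nr4a3 at 81.2, 153, 42.2 and 39.3 (log2FC 1.496, adjusted p = 0.00388). The Nr4a3 call was lost without Aged 2 (adjusted p = 0.239) and by DESeq2. Batf, an activator protein 1 factor of effector T cells, was lower in Aged at 70.4, 34.0, 165 and 144 (log2FC -1.56, adjusted p = 0.00144; -2.22 without Aged 1), and Ets1 was higher at 828, 736, 442 and 474 (log2FC 0.77, adjusted p = 0.000547). Of 18 listed T cell factors 15 were tested, and Eomes, Ets1 and Batf were the 3 that passed (median log2FC 0.32), a share (20%) near the 16.9% of all tested genes.

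**Figure D3:**
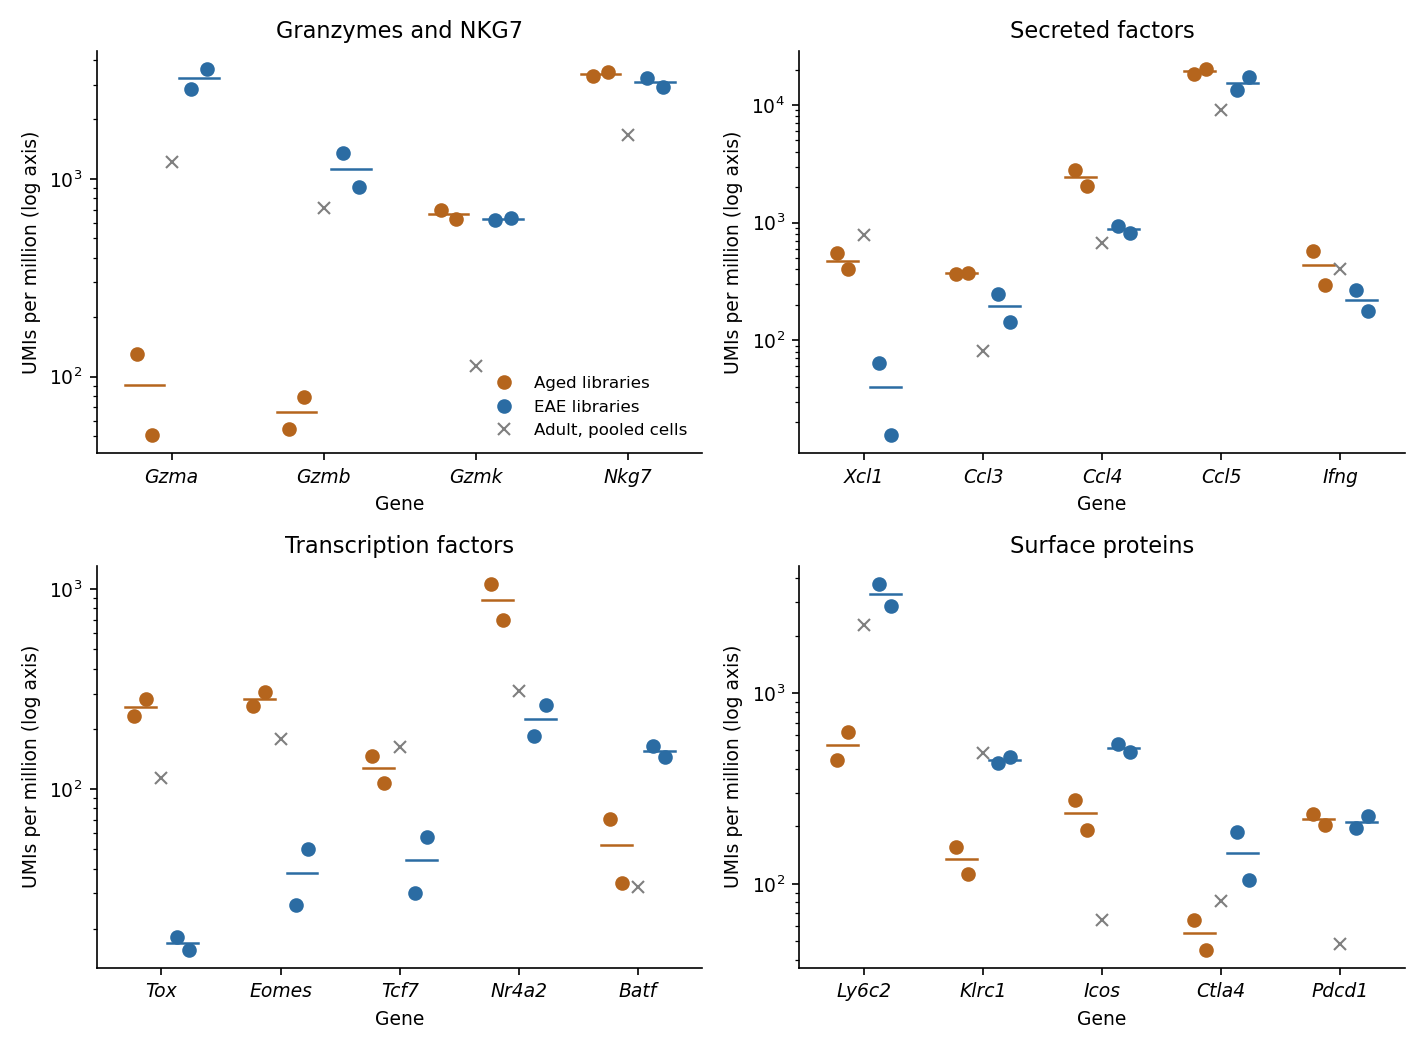
Levels of granzymes, secreted factors, transcription factors and surface proteins in CD8 T cells, in CPM on a log axis. Dots are the 2 Aged and 2 EAE libraries, short lines their means and crosses the 16 pooled Adult cells. Gzma, Gzmb, Ly6c2 and Klrc1 lay lower in both Aged libraries, Xcl1, Ccl4, Tox, Eomes and Nr4a2 higher, and the groups overlapped for Gzmk and Pdcd1.

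Of 16 listed checkpoint and exhaustion genes 9 were tested, of which 3 were higher in Aged, the nuclear factors Tox, Nr4a2 and Nr4a3, and 3 lower, the receptors Ctla4, Cd160 and Havcr2, with a median log2FC of 0.06. Of the 7 that entered through both groups 2 were higher and 2 lower. Pdcd1, which encodes the receptor PD-1, stood at 233, 204, 197 and 225 (log2FC 0.06, SE 0.22, adjusted p = 0.903), and Lag3 at 86.6, 62.3, 76.4 and 70.8 (log2FC 0.01, adjusted p = 0.982). Ctla4, a brake on costimulation, was lower in Aged at 64.9, 45.3, 187 and 105 (log2FC -1.43, adjusted p = 0.00636). Cd160 was lower too, at 81.2, 62.3, 147 and 121 (log2FC -0.90, adjusted p = 0.0416). Ctla4 is also among the CD4 T cell markers given above, and the part of CD4 T cells in its level was not tested. Havcr2, the gene of TIM-3, was found in 0% (0 of 86 cells, which allows a share of up to 3.49% of cells with a UMI) and 1.49% of Aged against 13.97% and 12.96% of EAE cells without thinning, or 0% and 1.49% against 2.94% and 2.78% after thinning. It entered the test through EAE alone and was not tested without EAE 1, without EAE 2 or by DESeq2, and lost its call without Aged 1 (adjusted p = 0.0591). DESeq2 called neither Ctla4 nor Cd160, and leaving out a library lost the calls of Ctla4 (without EAE 1, adjusted p = 0.164) and Cd160 (without Aged 1, Aged 2 or EAE 1).

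Of 15 listed receptors shared with NK cells 7 were tested, of which 4 were lower and 0 higher (median log2FC -0.65). Klrc1, which encodes the inhibitory receptor NKG2A, stood at 157 and 113 in Aged and at 428 and 464 in EAE, with 487 in Adult (log2FC -1.71, SE 0.22, adjusted p = 1.75e-06). Its partner Klrd1 (CD94) stood at 292, 204, 410 and 362 (log2FC -0.64, adjusted p = 0.0283) and the activating receptor Klrk1 (NKG2D) at 168, 198, 285 and 288 (log2FC -0.65, adjusted p = 0.0361). Klrg1, a marker of short-lived effector cells, was found in 0% and 1.49% of Aged against 14.7% and 12.04% of EAE cells without thinning, or 0% and 1.49% against 4.41% and 3.70% after thinning. It entered the test through EAE alone and was not tested without EAE 1 or by DESeq2, which called neither Klrd1 nor Klrk1. Of the 6 receptors that entered through both groups 3 were lower. The Klrk1 call was lost whichever library was left out (adjusted p up to 0.278), Klrd1 without Aged 2 or EAE 1 (0.304 and 0.143) and Klrg1 without EAE 2 (0.115).

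Of 19 listed activation and costimulation genes 15 were tested, with 7 lower and 2 higher in Aged (median log2FC -0.81). Without EAE 1, 4 of 11 tested were lower and 2 higher, by DESeq2 4 of 11 were lower and 1 higher, and without any 1 of the other libraries 5 were lower. The calls of Cd27, Tnfrsf4, Tnfrsf18, Il18r1 and Il18rap were lost, or the gene not tested, in at least 1 of these settings. With thinned cells 2 of 8 and with the stricter selection 2 of 9 were lower, and of the 13 genes that entered through both groups 5 were lower and 2 higher. Ly6c2, a surface protein of effector and memory CD8 T cells (chr15:75108158-75111970, minus strand), stood at 444 and 623 in Aged and at 3730 and 2871 in EAE, with 2271 in Adult (log2FC -2.63, SE 0.17, adjusted p = 5.25e-11). After thinning it was found in 17.4% and 22.4% of Aged against 74.3% and 66.7% of EAE cells, and in at most 3.88% of ECs. The near-identical gene Ly6c1, an abundant RNA of ECs, differed the other way (log2FC 1.15, adjusted p = 0.000184), and the assignment of UMIs between both genes is uncertain. Ly6a, which encodes Sca-1, stood at 433, 560, 1257 and 1112 (log2FC -1.26, adjusted p = 1.58e-06) and the costimulator Icos at 276, 193, 539 and 490 (log2FC -1.13, adjusted p = 0.000117). Il2ra, the alpha chain of the interleukin-2 receptor, had 0 UMIs in both Aged libraries and 14 and 11 in EAE, too few to be tested. Plac8, a gene of effector lymphocytes and myeloid cells that belongs to no list (chr5:100553725-100572245, minus strand), stood at 27.1 and 67.9 against 1466 and 1442 (log2FC -4.94, SE 0.23, adjusted p = 8.34e-15; -5.76 without Aged 2).

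Genes of naive, memory and tissue-resident cells gave a mixed account. Of 16 naive and central memory genes 10 were tested, with 4 higher and 1 lower in Aged (median log2FC 0.66). The 4 higher were Klf2, Tcf7, Klf3 and Bcl2, of which Klf2 alone was called without Aged 1, without EAE 1 or by DESeq2, and 2 without EAE 2. With thinned cells 1 of 4 was higher, and with the stricter selection 0 of 3. Klf2, a factor that maintains T cell recirculation, stood at 790, 940, 390 and 333 (log2FC 1.25, adjusted p = 1.56e-06; 0.30 in ECs, which also express it), and Tcf7, which encodes TCF1, at 146, 108, 30.2 and 57.7 (log2FC 1.58, adjusted p = 0.00185). The genome organizer Satb1 was lower in Aged at 54.1, 51.0, 151 and 186 (log2FC -1.66, adjusted p = 0.000444). Ccr7, a defining receptor of naive cells, was scarce in both groups, with 22 UMIs in all. Of 16 residency genes 7 were tested, with 3 higher (Cd69, Rgs2 and Xcl1) and 0 lower. Cd69, which keeps T cells in tissue and also rises on activation, stood at 384, 323, 251 and 189 (log2FC 0.67, adjusted p = 0.0224), whereas Cxcr6, a chemokine receptor of resident cells, stood at 568.2, 323, 519 and 519 (log2FC -0.22, adjusted p = 0.49; -0.72 and called without Aged 1), and Itgae, the gene of CD103, had 1 UMI. The Tcf7 call was lost without Aged 1 or EAE 1 and by DESeq2 (lowest adjusted p = 0.0543), and Cd69 without Aged 1 or EAE 2 (adjusted p = 0.307 and 0.257).

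Of 18 homing and adhesion genes 14 were tested, with 2 higher and 4 lower (42.9% called, against 16.9% of all tested genes) and a median log2FC of 0.00. By DESeq2 2 were higher and 2 lower, with thinned cells 2 and 1 of 13 and with the stricter selection 1 and 0 of 12. The integrin beta 1 chain Itgb1 stood at 368, 300, 153 and 147 (log2FC 1.15, adjusted p = 0.000235). The lymphocyte receptor S1pr4, which binds sphingosine 1-phosphate, was lower at 75.8, 73.6, 241 and 202 (log2FC -1.57, adjusted p = 0.000143), as was vimentin (Vim) at 487, 510, 1019 and 868 (log2FC -0.92, adjusted p = 8.16e-05). Cxcr3, which guides effector T cells into inflamed tissue, stood at 162, 193, 153 and 147 (log2FC 0.24, adjusted p = 0.536).

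Immediate early and stress genes are transcribed soon after a stimulus, including cell isolation. Of 17 tested, 10 were higher in Aged and 2 lower, with a median log2FC of 0.70 against -0.32 for the same genes in ECs. Junb stood at 6575 and 4557 in Aged and at 1261 and 1471 in EAE (log2FC 2.03, SE 0.15, adjusted p = 7.46e-10), the phosphatase gene Dusp1 at 693, 657, 161 and 163 (log2FC 2.06, adjusted p = 2.72e-09) and Fos at 265, 345, 98.5 and 115 (log2FC 1.52, adjusted p = 2.01e-05). In ECs Junb had a log2FC of -0.24, Dusp1 of 0.36 and Fos of -0.02. Nfkbia, the inhibitor that NF-kB itself induces, was lower in Aged at 363, 266, 752 and 658 (log2FC -1.16, adjusted p = 2.22e-05). By DESeq2 7 of 14 were higher and 1 lower, with the stricter selection 6 of 11 and 0, and with thinned cells 3 of 13 and 1.

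Most tested interferon-stimulated genes were lower in Aged. These genes are switched on by STAT and IRF proteins, which bind a short element, the interferon-stimulated response element, in their promoters. None of 21 tested genes was higher and 14 were lower, with a median log2FC of -1.07 (-0.69 in ECs). Igtp, an immunity-related GTPase, stood at 37.9, 39.6, 261 and 176 (log2FC -2.51, SE 0.34, adjusted p = 6.68e-06), the nucleic acid sensor Zbp1 at 59.5, 84.9, 384 and 262 (log2FC -2.18, adjusted p = 2.99e-06) and the exonuclease gene Isg20 at 21.7, 56.6, 199 and 157 (log2FC -2.21, adjusted p = 7.09e-05). Bst2, which encodes the virus-tethering protein tetherin, stood at 152, 300, 489 and 433 (log2FC -1.04, adjusted p = 0.00187), and Isg15 at 146, 226, 209 and 233 (log2FC -0.25, adjusted p = 0.517). In ECs the log2FC was -1.74 for Igtp, -2.78 for Zbp1 and -0.11 for Isg20. Without Aged 2 the log2FC in CD8 T cells went to -3.07 for Isg20 and -1.64 for Bst2. Without Aged 1, 7 of the 14 calls were lost (adjusted p = 0.0806 to 0.489), Bst2 among them, and DESeq2 called 6 of 20. With thinned cells 2 of 11 and with the stricter selection 3 of 10 were called. Of the 20 that entered through both groups 13 were lower.

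The promoters of 9 of these 14 genes were found in RefSeq (GRCm38.p6). The pattern of GAAA, any 2 bases and GAAA, searched on both strands in the 250 bases before the start, was present in 6 of them (66.7%: Ifit1, Ifit3, Bst2, Igtp, Gbp2 and Gbp7), in 3.93% of 2644 tested genes with a promoter and in 3.46% of all 27025 promoters. None of 8 matched immediate early genes that were higher in Aged held it, whereas TGACGTCA, the element of cAMP-responsive factors, was found in 2 of these 8 (25%, Dusp1 and Btg2) and in 3.63% of the tested genes. GGGA, any 3 bases and CCC, an NF-kB motif, was found in 0 of the 9 and 1 of the 8 against 7.60%. The lists were made of genes of known response, so that such shares can follow from that choice alone. They do not bear on the difference between Aged and EAE. Promoters of 4 of the interferon-stimulated genes are shown because they carry the element in different number, position and strand: Ifit1 (chr19:34640639-34640888, plus strand), Bst2 (chr8:71537473-71537722, minus strand), Igtp (chr11:58199306-58199555, plus strand) and Gbp2 (chr3:142620413-142620662, plus strand). Capitals mark the matched letters, and the sequences run 5′ to 3′ to the base before the start.
Ifit1: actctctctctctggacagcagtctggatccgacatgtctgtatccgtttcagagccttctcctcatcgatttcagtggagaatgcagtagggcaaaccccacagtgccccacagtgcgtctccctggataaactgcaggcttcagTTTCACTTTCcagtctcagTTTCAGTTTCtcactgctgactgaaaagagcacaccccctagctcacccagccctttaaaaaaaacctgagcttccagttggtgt
Bst2: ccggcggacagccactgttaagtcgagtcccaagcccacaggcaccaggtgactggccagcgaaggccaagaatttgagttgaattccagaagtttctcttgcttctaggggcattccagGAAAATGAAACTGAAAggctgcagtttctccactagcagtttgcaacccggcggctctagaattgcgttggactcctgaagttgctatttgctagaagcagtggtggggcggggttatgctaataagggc
Igtp: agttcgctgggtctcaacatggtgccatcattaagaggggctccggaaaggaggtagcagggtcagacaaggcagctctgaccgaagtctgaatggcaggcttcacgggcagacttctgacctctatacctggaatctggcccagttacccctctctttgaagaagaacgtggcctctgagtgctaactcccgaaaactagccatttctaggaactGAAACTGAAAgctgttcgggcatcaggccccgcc
Gbp2: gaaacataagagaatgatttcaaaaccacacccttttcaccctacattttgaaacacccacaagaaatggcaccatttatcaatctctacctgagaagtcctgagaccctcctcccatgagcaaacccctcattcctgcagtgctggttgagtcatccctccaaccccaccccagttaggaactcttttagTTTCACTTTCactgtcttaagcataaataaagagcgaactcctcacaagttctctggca
Ifit1 held 2 separate matches and Bst2 2 that overlapped, and the nearest began 85 and 124 bases before the start. The single matches of Igtp and Gbp2 began 34 and 59 bases before it. Ifit1, which entered through EAE alone, stood at 10.8, 34.0, 66.3 and 115 CPM (log2FC -1.97; -3.02 without Aged 2, and not called without Aged 1 or EAE 2 at an adjusted p of 0.0970 and 0.179) and Gbp2 at 59.5, 39.6, 139 and 128 (log2FC -1.42, adjusted p = 0.00363; not called by DESeq2). A match is a description of the letters and not of binding.

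Class I genes encode the molecules that show peptides to CD8 T cells. Of 11 tested, 3 were lower (H2-T22, H2-T23 and Tap1) and 0 higher, or 27.3% called against 16.9% of all tested genes. The median log2FC of the 11 was -0.14 against -1.15 in ECs. B2m, the light chain of class I molecules, stood at 7874, 8004, 8298 and 7595 (log2FC 0.00, SE 0.09, adjusted p = 0.994), and H2-K1 at 2040, 1896, 2057 and 1909 (log2FC -0.01, adjusted p = 0.97). In ECs the log2FC was -0.80 for B2m and -1.28 for H2-K1.

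Several genes of proliferation and most tested genes of glycolysis were lower in Aged. None of 16 tested cell cycle genes was higher and 8 were lower (median log2FC -1.16, and 0.14 in ECs). Tuba1b, a tubulin, stood at 265, 379, 710 and 595 (log2FC -1.02, adjusted p = 0.000164) and Hmgb2, a chromatin protein, at 303, 413, 728 and 650 (log2FC -0.95, adjusted p = 0.000218). Mki67, a marker of dividing cells, had 1 and 2 UMIs in Aged and 18 and 9 in EAE. A narrower set of cycle genes was summed per cell: Mki67, Top2a, Birc5, Cdk1, Ccna2, Ccnb2 and Rrm2. Cells with at least 2 UMIs of this set numbered 2 and 2 in Aged and 19 and 9 in EAE, or 0 and 0 against 10 and 5 after thinning. Of the 8 calls of the cell cycle list, 4 were lost without Aged 1, and without EAE 1 2 were lost and 2 not tested. DESeq2 called 2 of 7. None was called with thinned cells (0 of 6 tested) or with the stricter selection (0 of 4 tested), and of the 10 that entered through both groups 4 were lower. Of 10 tested glycolysis genes 7 were lower and 0 higher (median log2FC -0.93; -0.44 in ECs), or 4 of 9 with thinned cells and 5 of 8 with the stricter selection. Gapdh stood at 579, 532, 1184 and 1067 (log2FC -1.02, adjusted p = 1.7e-05) and the pyruvate kinase Pkm at 406, 357, 905 and 870 (log2FC -1.22, adjusted p = 1.75e-06). Of 23 genes of oxidative phosphorylation 2 were higher and 5 lower (30.4% called, against 16.9% of all tested genes), with a median log2FC of -0.18. These counts went to 1 and 2 without Aged 1, 0 and 3 without Aged 2, 1 and 3 without EAE 1, 0 and 2 without EAE 2, 0 and 1 of 21 by DESeq2, and 0 and 0 of 20 with thinned cells.

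**Figure D4:**
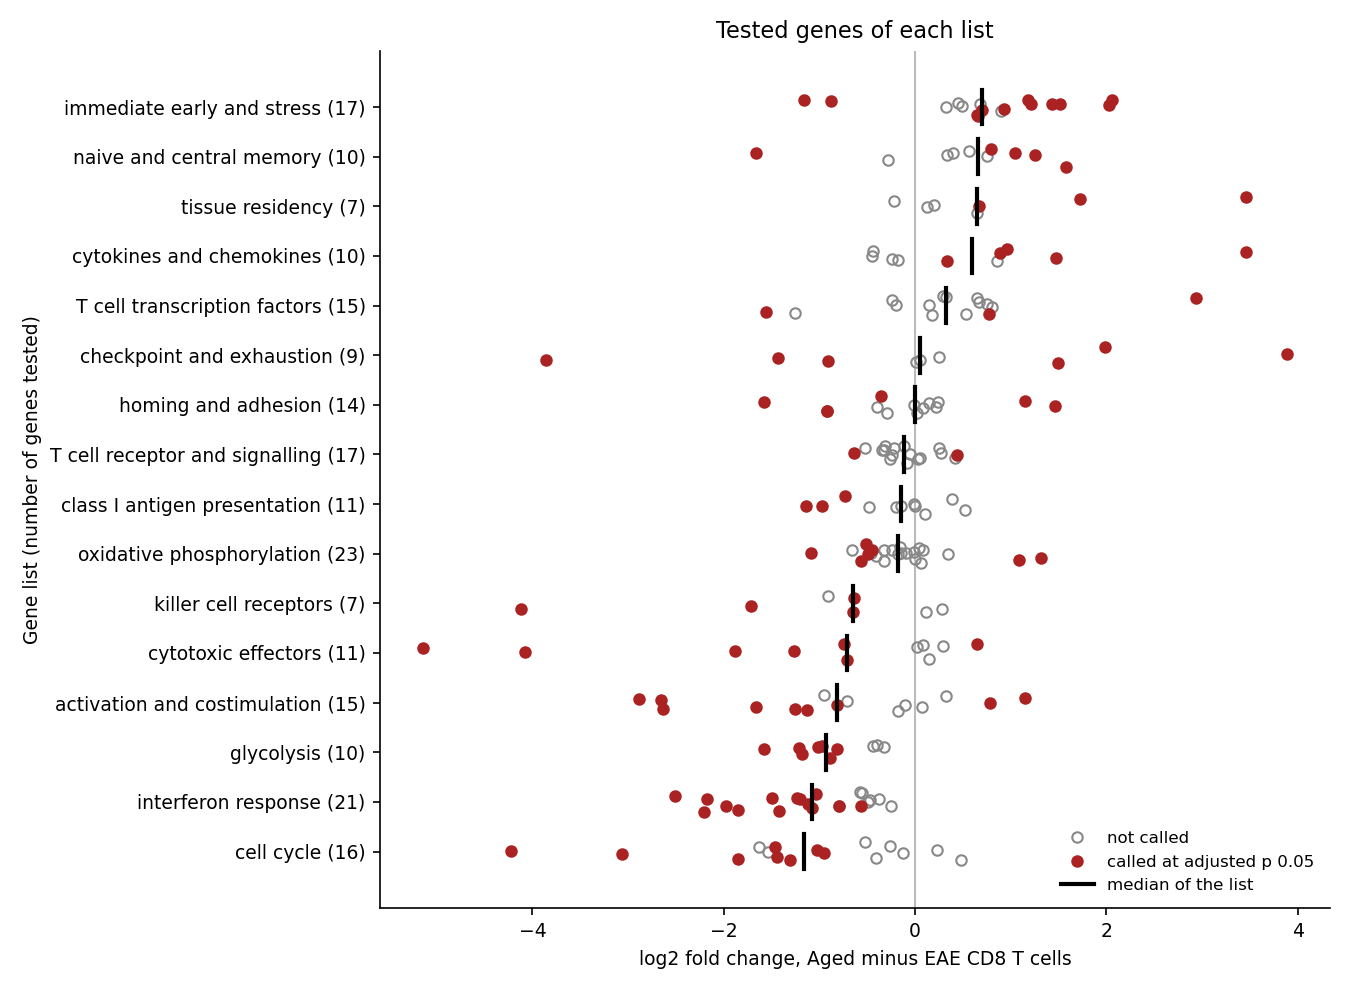
Log2 fold change (Aged minus EAE CD8 T cells) of the tested genes of each list, with the number tested in brackets. Filled points passed an adjusted p of 0.05, open points did not, and the black bar is the median of the list. Medians run from -1.16 for the cell cycle to 0.70 for immediate early genes.

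Of 17 tested genes of the T cell receptor and its signaling 1 was higher (Trbc1) and 1 lower (Ptprcap), with a median log2FC of -0.12, a share called (11.8%) near the 16.9% of all tested genes. Trbc2 stood at 1802, 1387, 1836 and 1534 (log2FC -0.08, adjusted p = 0.774) and Lat, a signaling scaffold, at 698, 725, 925 and 876 (log2FC -0.34, adjusted p = 0.105). Neither call was made by DESeq2 (adjusted p = 0.0602 to 0.254), and both were lost without Aged 1 or EAE 1.

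Among the 12 genes with the largest rise in Aged at 100 CPM or more were Tox, Xcl1, Eomes and Dusp1 and also several RNAs that rose in ECs as well. The ribosomal protein pseudogene Rpl32-ps stood at 319, 209, 34.2 and 7.87 (log2FC 3.53 in CD8 T cells, 4.95 without EAE 1 and 2.90 without EAE 2, and 2.55 in ECs), and Gm7866, which entered through Aged alone, at 146, 119, 18.1 and 7.87 (log2FC 3.25, 3.95 without EAE 1, and 2.43 in ECs). Pseudogenes share sequence with their parent genes, so that their counts are uncertain. Among the 12 largest falls were Ifitm1, which entered through EAE alone with 1 UMI in each Aged library and stood at 5.41, 5.66, 213 and 163 (log2FC -5.00), Lgals3, the gene of galectin-3, at 124, 124, 523 and 614 (log2FC -2.18, adjusted p = 2.8e-08), and Prelid1, a mitochondrial lipid carrier, at 86.6, 108, 398 and 380 (log2FC -2.003, adjusted p = 7.22e-07). In ECs their log2FC was -3.48, -2.55 and -0.20.

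The difference between Aged and EAE in CD8 T cells was also set against that in all other kept cells of the same libraries (interaction term, edgeR), which express many of these genes themselves. It differed in 834 genes, or 23% of those tested, with a positive interaction in 613 of the 834 and a negative one in 221. Of the 613 genes called between Aged and EAE CD8 T cells, 301 passed this test with the same sign (49.1%), and 297 when ECs stood in for the other cells. Among these were Eomes (interaction log2 2.87, adjusted p = 6.48e-07), Xcl1 (3.58, 3.88e-11), Ccl4 (1.82, 1.13e-11), Nr4a2 (2.51, 2.34e-10) and Junb (2.08, 1.13e-10). Gzma (-1.42, adjusted p = 2.76e-05), Gzmb (-2.21, 0.00656) and Plac8 (-1.59, 3.8e-05) also passed against all other cells. Against ECs these 3 did not pass (adjusted p = 0.162, 0.0988 and 0.204), with Gzma at 0.939 and 0.992 CPM in Aged ECs and 9.41 and 5.21 in EAE ECs. For Eomes the comparison with ECs gave an adjusted p of 0.105, with at most 0.454 CPM in ECs. Ly6c2 differed in the same direction in the other cells, and by more (interaction log2 0.45, adjusted p = 0.037). The other cells include the remaining T cells, among them 10 and 6 CD4 T cells in Aged and 264 and 246 in EAE. The tested T cell receptor and signaling genes had a median log2FC of -2.33 in the other cells and -0.12 in CD8 T cells. Trbc2, not called in CD8 T cells, had an interaction of 2.45 without the filter on low counts. The interaction does not separate a change within the other cells from a change in their makeup, and the part of each was not tested.

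**Figure D5:**
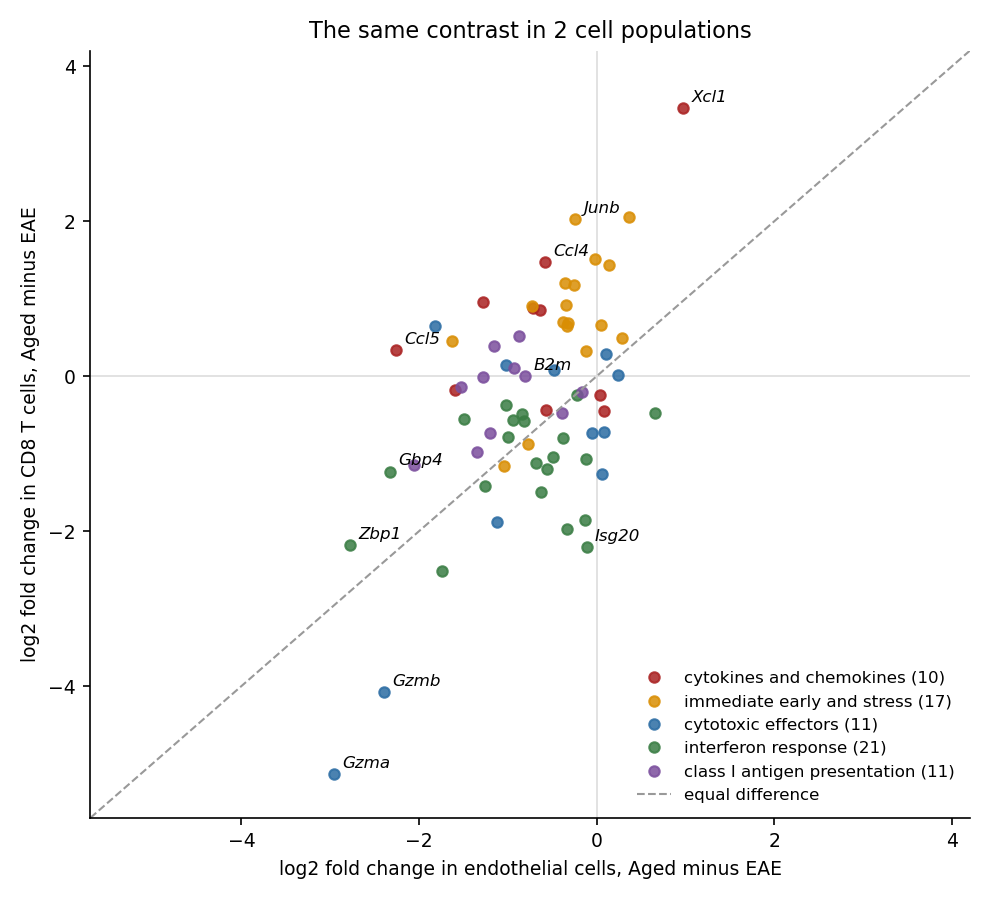
Log2 fold change, Aged minus EAE, of 5 gene lists in CD8 T cells (vertical axis) and in ECs of the same libraries (horizontal axis). The dashed line marks an equal difference. The class I genes had a median of -0.14 in CD8 T cells and of -1.15 in ECs, and Junb and Xcl1 lay above the line.

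CD4 T cells of the EAE libraries give a comparison within that disease. They are set beside the CD8 T cells without a test, because the selection fixes which cells fall in which set and the Aged libraries held too few CD4 T cells. In EAE 1 and EAE 2 the CD4 T cells had 137 and 114 Gzmb CPM, against 1345 and 907 in the CD8 T cells. Gzma stood at 637 and 718, Gzmk at 59.9 and 73.0 and Ccl5 at 2436 and 1918, all below the CD8 values. Plac8, at 1519 and 1381, was close to the CD8 values of 1466 and 1442. Tox, at 16.7 and 13.7, was as low in CD4 as in CD8 T cells of these libraries.

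The Adult cells, untreated and of the age of the EAE mice, numbered 16 and were summed to a single value without a test. The 2 cells with the most held 81.2% of the Xcl1, 100% of the Gzma and 90.9% of the Gzmb UMIs of this sum, and Scrublet marked 1 of the 16 as a doublet, so that these levels rest on few cells. Their Gzma, Gzmb, Tox and Eomes levels lay between those of Aged and EAE, at 1217, 714, 114 and 178 CPM. Their Ly6c2 and Klrc1 levels of 2271 and 487 were nearer to EAE, and their Plac8 level of 292 lay between. Xcl1 stood at 779 and Gzmk at 114.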

How the data were processed

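Mouse cortex was depleted of myelin and its cells captured by 10x 3′ chemistry. The authors deposited whole UMI counts per gene and cell, per the submitters' processing notes made with bcl2fastq 2.19.1.403, UMI-tools 0.5.3, STAR 2.5.3a and featureCounts 1.6.1 on mm10. The meninges were removed and the tissue was digested with papain and Liberase at 37 °C before capture. The authors had left lymphocyte clusters out of their main atlas, so the cells were found again here from the counts of all barcodes. For EAE they did report lymphocytes among the infiltrating cells enriched over age-matched controls, with CD3 staining and flow cytometry.

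Of 54646 barcodes, 50625 were kept. Counts of the selected cells were summed per library. They were tested by edgeR 4.0.16 (quasi-likelihood test, TMM, filterByExpr, adjusted p under 0.05) on the Aged and EAE libraries only. Genes of the selection were counted among the 3625 tested and 613 called but not reported singly. Without them 610 of 3615 were called. The study's own tests, by Wilcoxon on single cells, treat cells as replicates and were not used. The interaction with other cells was fitted with library as a term. The test against CD4 T cells was not run, because Aged 2 held 6 of them and at least 10 per library were required. ECs were cells with at least 5 UMIs of Cldn5 and of Flt1 together and none of the CD3 genes or Ptprc. Shares of cells with a gene were taken after thinning each cell to 800 UMIs. Alternatives were DESeq2 1.42.0, other scalings and filters, a stricter selection, thinning, a replicate block, added Adult cells and leaving out each library. Leaving out the hemoglobin-rich cell and using ECs as the reference were chosen after seeing the data.

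Named genes were the 12 with the largest change in each direction among called genes with at least 100 CPM and groups that did not overlap, every called gene of the T cell lists, and the 3 highest members of each such list. Genes of the interferon, class I, immediate early, cell cycle and metabolic lists and of the marker tables were named as examples after their values were seen. Some genes of the lists are counted but not reported here. The members and lists were chosen with earlier results of these data known. The libraries pool animals and nothing says how separately they were made, so p-values measure the spread between these libraries, which may be technical. The deviations of same-numbered libraries from their group means had a correlation of -0.04 across genes. Counting noise of single genes weakens such a correlation, so that it does not show that the libraries were unpaired. On simulated data with 2 libraries per group the test recovered 40% of changes of 1 log2 unit and 91.1% of changes of 2, with 3.28% false calls. The interaction test recovered 19% and 71%. Scrublet, run in scanpy 1.11.5, marked 0.335% of Aged and 2.47% of EAE cells, and none of the 397 CD8 T cells. Whether it missed doublets in Aged was not tested, so that the lack of marks there is not relied on. Read alignment was not repeated, and 3′ counts do not allow levels of different genes to be compared.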

Additional observations from a re-analysis of the deposited data

Results flagged for a closer look

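For 15 of the named genes, the difference between Aged and EAE in CD8 T cells went against that in all other kept cells of the same libraries, and the interaction term of edgeR's quasi-likelihood test passed an adjusted p of 0.05 (n = 2 libraries per group). Of all 610 genes that changed in CD8 T cells outside the selection rule, 149 were of this kind, 93 higher and 56 lower in Aged CD8 T cells. Chemokines made up 4 of the 15, with an interaction on the log2 scale of 3.58 for Xcl1, 3.25 for Ccl5, 1.82 for Ccl4 and 1.42 for Ccl3. Ifng followed with 3.09. Of the nuclear receptors, Nr4a3 had 3.22 and Nr4a2 2.51. The receptor chain gene Trbc1 had 2.63, the protease inhibitor gene Cst7 2.204, and the residency list genes Rgs2 and Cd69 2.32 and 2.198. Bcl2, which protects lymphocytes from death, had 1.24, and Klf3, a repressor of the Klf family, 1.16. Serpinb9, which encodes an inhibitor of granzyme B, and S1pr4 went the other way, with -1.36 and -1.71. The call between Aged and EAE CD8 T cells itself was lost whichever library was left out for Trbc1 and Klf3, without at least 1 library for Bcl2, Ccl3, Ccl5, Cd69, Cst7, Ifng and Nr4a3, and in no case for the others of these 15. The other cells are a mixture whose makeup differs between the groups, and the part of that difference in these values was not tested.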

How the results depend on the processing

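The number of genes that changed between Aged and EAE CD8 T cells was 613. It fell to 117 with the stricter selection (84 cells, 887 genes tested, 106 of the calls shared), to 113 with thinned cells (1080 genes tested, 107 shared) and to 178 by DESeq2 (1868 tested), and ranged from 310 to 438 when a library was left out. No filter on low counts gave 621 calls of 13726 tested, of which 28.5% were higher in Aged against 49.1% with the filter, with a median log2FC of -0.13 against 0.01. The other alternatives gave 602 to 691 calls. The 834 genes of the interaction fell to 245 with the stricter selection and 249 with thinned cells, and ranged from 497 to 594 when a library was left out, with 616 against ECs. The fit with the replicate block called 602 genes, 573 of them shared, and -0.04 as the correlation of same-numbered libraries gave no sign of pairing. Of the 67 genes named by the rule and called, 41 were also called by DESeq2 (6 were not tested), 42 when any 1 library was left out, 65 with the block and 67 without the hemoglobin-rich cell, a setting chosen after seeing the data that gave 691 calls. The share of CD8 T cells among kept cells differed by -0.0850 to 0.215 points when a library was left out, and that among CD8 and CD4 T cells by 56.7 to 60.2, or 52.1 with the stricter selection. Of 33 genes with shares of cells, 26 did not overlap between groups when thinned to 800 UMIs or not thinned, and 23 when thinned to 1200. These genes were chosen with results known. Levels, a different measure from shares of cells, did not overlap for 2097 of all 3625 genes tested. Lack of overlap was thus common among all genes. Of the 613 genes called, which are 16.9% of those tested, 612 did not overlap. Among the 76 genes followed through each alternative, the direction turned for the following, none of which had been called. Without the filter the log2FC was -0.036 for Nkg7, -0.12 for Pdcd1, -0.10 for Gzmk and -0.17 for Lag3. With thinned cells it was -0.13 for Pdcd1, 0.21 for Isg15, 0.13 for B2m and 0.20 for H2-K1, and with the stricter selection 0.12 for H2-K1. With a library left out it ranged from -0.32 to 0.061 for Trbc2, from -0.087 to 0.11 for Pdcd1, from -0.72 to 0.097 for Cxcr6, from -0.62 to 0.0035 for Isg15, from -0.11 to 0.022 for B2m, from -0.11 to 0.0060 for H2-K1, from -0.032 to 0.12 for Gzmk and from -0.28 to 0.19 for Lag3, which had -0.020 with Adult cells added. The cause was not tested. Of 13726 genes with a UMI in these cells, 3625 had enough to be tested.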
